A study of Homo sapiens with 14 samples.

Results

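RNA in K562 cells was probed with 2 reagents of different chemistry, and the question here was whether the cell changes both readouts in the same places. icSHAPE uses NAI-N3, which acylates the ribose hydroxyl of flexible nucleotides, and icLASER uses NAz-N3, which on exposure to light reacts with solvent-exposed purines (A and G) at their base. Scores are deposited for all 4 bases, so an icLASER value at C or U is a score of the pipeline and not a known adduct, and a window mean mixes both kinds. K562 is an established human cell line of chronic myelogenous leukemia with an erythroid character. For each nucleotide the icSHAPE difference was its score in living cells (in vivo) minus its score in extracted RNA (in vitro), and the icLASER difference was formed in the same way. The scores run from 0 (unreactive) to 1, except for 13 scores of icSHAPE in vitro and 3 of icSHAPE in vivo. A negative difference means lower reactivity in the cell.

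The 4 profiles came from 3 icSHAPE in vivo, 2 icSHAPE in vitro, 2 icLASER in vivo and 2 icLASER in vitro libraries, with 3 DMSO and 2 no-UV control libraries. NAI-N3 was given at 100 mM for 5 min, and NAz-N3 from a 1 M stock with 10 min of light. The authors pooled the libraries of a group into 1 profile, so no replicate spread, error or test can be given for any difference, and every statement is a description of these 4 profiles. The 2 icSHAPE profiles share their DMSO controls and the 2 icLASER profiles share their no-UV controls, but the 2 differences share no library. The profiles hold no read counts, and the deposited RPKM of a row stood in for its depth.

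Of 6780 genes with a transcript in any profile, 3729 had a transcript in all 4, and 3714 of these gave at least 1 non-overlapping window of 30 nt scored throughout. One transcript was used per gene, that of highest mean RPKM. The windows numbered 156786, with a median of 26 per gene, and 3034 genes had at least 10. Erythroid genes marked the cells: the lowest RPKM over the 4 profiles was 1225 for the fetal globin HBG1, 260 for the embryonic globin HBZ and 73.0 for the transcription factor GATA1.

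Inside a cell an RNA can be covered by proteins, unwound by ribosomes and helicases, or folded with partners that are lost on extraction. Ribose flexibility and base exposure are different properties: a bound protein may cover the base and leave the ribose mobile, or the reverse. Classical cases of covered RNA are the iron-responsive element, a hairpin with a CAGUG loop in ferritin mRNAs that binds the iron regulatory proteins, and the small nucleolar RNAs (snoRNAs), which are cut from introns and held in a protein particle.

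The windows in which both reagents were lower in the cell included ferritin loops and a window of a snoRNA host gene, and whether a protein covered them was not tested. The following 30 nt are shown because they are among the 5 largest shared losses of eligible windows, 1 per gene (SNHG3, CENPH, YWHAG), or hold the ferritin loop (FTL, FTH1). Eligible windows had RPKM of at least 20 in all 4 profiles, and their other conditions are given with the processing. They are printed 5′ to 3′ from GENCODE transcripts on GRCh38. Capitals mark nucleotides lower in vivo by at least 0.2 with each reagent in the first 3, and the letters CAGUG in the ferritins.
SNHG3: GCGcCUGCAUAUUCCuACAGCUucccaGAG
CENPH: uUagAgcuAAAUAaAUUaaUaAuGaaaUcA
YWHAG: agAaGgucuGUGGugCAGuGUGuGAAaauU
FTL: cuugcuucaaCAGUGuuuggacggaacaga
FTH1: gcuucaaCAGUGcuuggacggaacccggcg

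The SNHG3 window lies in a retained intron (chr1:28507497-28507526, plus strand) of this snoRNA host gene. Its mean went from 0.784 in vitro to 0.125 in vivo with icSHAPE and from 0.889 to 0.0725 with icLASER. Of its 30 nucleotides, 29 were lower in vivo with icSHAPE and 30 with icLASER. The CENPH window lies in the coding sequence of a kinetochore protein (chr5:69202534-69202563, plus strand). It went from 0.749 in vitro to 0.353 in vivo with icSHAPE and from 0.808 to 0.412 with icLASER. The YWHAG window lies in the 3′ UTR of a 14-3-3 protein mRNA (chr7:76328498-76328527, minus strand), where the icSHAPE difference was -0.51 and the icLASER difference -0.37. The other 2 of the 5 largest were in the lncRNA ENSG00000266976 (-0.41 and -0.44) and in HSP90AB3P (-0.40 and -0.39), a processed pseudogene whose reads can come from its parent gene.

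In FTL, the ferritin light chain mRNA, the loop window is in the 5′ UTR (chr19:48965337-48965366, plus strand). There icSHAPE went from 0.479 in vitro to 0.192 in vivo, and icLASER from 0.445 to 0.0900. Among the 28 FTL windows it was the only one lower by at least 0.1 with both reagents, although FTL as a whole was opposed, with a mean icSHAPE difference of -0.0192 and a mean icLASER difference of 0.0366. In FTH1, the ferritin heavy chain mRNA, the loop window (chr11:61967568-61967597, minus strand) went from 0.268 to 0.130 with icSHAPE and from 0.211 to 0.0396 with icLASER. It was 1 of 2 FTH1 windows lower with both. The other lay at positions 487 to 516, in what is annotated as the 3′ UTR of the row used. It went from 0.433 to 0.208 with icSHAPE, a larger loss than that of the loop, and from 0.550 to 0.450 with icLASER. The FTH1 row is a transcript annotated for nonsense-mediated decay, and it overlaps the other transcripts of the gene. Its 3′ UTR label holds for that transcript and need not hold for the others.

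The transferrin receptor mRNA TFRC, which carries its iron-responsive elements in the 3′ UTR, had no window with CAGUG in the class lower with both. Over its 9 such windows in the 3′ UTR the icSHAPE differences were -0.076 to 0.16 and the icLASER differences -0.15 to 0.52. Of these windows 3 were lower with both by any size, at most by the -0.053 and -0.028 of positions 3337 to 3366. The windows were picked by the letters alone, and not each need hold an element. The 0.52 was at positions 4747 to 4776, near the 3′ end, where the mean icLASER difference of protein-coding transcripts was 0.19. A 3′ UTR window without these letters, at positions 3187 to 3216, had differences of -0.0991 and -0.142, just outside the class. Over the whole row 16 of 159 windows were higher with icSHAPE and lower with icLASER, against 3.02% of all windows. Sparse windows, those with a mean in at least 1 profile no higher than 2 nucleotides at 1 and the others at 0 would give, were 10 of these 16. They were 32.7% of TFRC windows and 38.8% of all windows. An icLASER loss in vivo defines the class in part and can itself make a window sparse. The 10 therefore cannot separate few reads from such a loss. The TFRC lowest RPKM was 9.24, against 2391 for FTL. The letters alone did not go with the class: CAGUG (transcript strand) was present in 6578 of 152374 windows with sequence (4.32%), and 2.08% of those were lower with both, against 1.92% of all windows.

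Across all windows the differences of the 2 reagents were close to unrelated. Pearson's r was 0.0059 over the 156786 windows, and 0.017 when only A and G were scored. The icSHAPE difference had a mean of 0.028 ± 0.095 (SD over windows) and the icLASER difference -0.0018 ± 0.104. Across the 3034 genes the r of the gene means was -0.14, and over the 1211 genes with RPKM of at least 20 it was 0.0052, so the sign did not hold at higher RPKM. Within genes the median r was 0.070, with quartiles of -0.11 and 0.28, and 1828 genes (60.3%) had an r above 0. Neighbouring windows are not independent, since the difference in a window and that in the next had an r of 0.42 for icSHAPE and 0.60 for icLASER.

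The relation was positive over short distances and negative over long ones. When the mean of its 6 neighbours (3 on each side) was taken from each window, r became 0.11 over 129965 windows. The means of the neighbours themselves had an r of -0.11. With 2 neighbours the short-range r was 0.10, and with 10 it was 0.125. The short-range value was 0.14 in coding sequence, 0.061 in 3′ UTRs, 0.038 in 5′ UTRs and 0.21 in transcripts with no coding sequence.

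Genes with a higher RPKM had a higher r within them, and so did genes with shorter transcripts. Spearman's rho of r was 0.19 with lowest RPKM and -0.30 with transcript length. The median within-gene r was 0.0045 in the 20% of genes with the lowest RPKM (5.15 to 8.76) and 0.17 in the 20% with the highest (41.6 to 10824). Among protein-coding transcripts alone it went from -0.012 to 0.14 over the same steps of RPKM. The short-range r changed little, from 0.11 in the 20% of windows of lowest RPKM to 0.13 in the highest, while the unadjusted r went from -0.015 to 0.075. The genes of highest RPKM were also shorter (median 773 nt against 1972) and included more processed pseudogenes (26.9% against 7.74%), and the part of length and read sharing was not tested.

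The levels behind the differences were more alike than the differences. Over windows, icSHAPE and icLASER had an r of 0.66 in vitro and 0.23 in vivo. The crossed pairs were intermediate: 0.42 for icSHAPE in vivo with icLASER in vitro, and 0.49 for icSHAPE in vitro with icLASER in vivo. The covariance of the differences is the sum of the 2 matched covariances less the 2 crossed ones, and these nearly cancelled.

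Each difference also depended on its own starting level, with an r of -0.55 between the icSHAPE difference and the icSHAPE in vitro score, and of -0.50 for icLASER. Where both in vitro scores were in their highest 20%, the mean differences were -0.079 for icSHAPE and -0.086 for icLASER, and 16.0% of 16458 windows were lower with both. Where both were in their lowest 20%, the means were 0.046 and 0.041 over 16041 windows, where a loss of 0.1 is hardly possible because scores end at 0. Once base composition and the 2 in vitro scores were fitted out, r was -0.091 over windows and 0.36 across genes, the reverse of the signs before. An in vitro score enters its own difference, and how much of the dependence comes from this was not tested.

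Classes were formed from windows whose differences were at least 0.1 in size with both reagents. With icSHAPE alone 6.77% of windows were lower in vivo and 19.2% higher, and with icLASER alone 13.6% were lower and 12.1% higher. Both were lower in 3013 windows (1.92%) of 1450 genes and both higher in 2692 (1.72%). icSHAPE was higher and icLASER lower in 4739 windows (3.02%), and icSHAPE lower and icLASER higher in 1737 (1.11%). The class lower with both held 2.09 times the product of the 2 separate shares, and the class higher with both 0.741 times. At a difference of at least 0.2 the same ratios were 5.45 (593 windows) and 0.763 (109 windows). The opposed classes also exceeded their products. Their ratios were 1.16 (icSHAPE higher and icLASER lower) and 1.35 (the reverse) at 0.1, and 1.95 and 1.58 at 0.2. At these thresholds joint losses had the highest ratio of all classes, and joint gains were the only class below its product. At 0.05, joint gains outnumbered joint losses (13636 against 8375), as they did with windows of 15 nt (9058 against 8566) and over every transcript (7374 against 7054). With each profile divided by its own mean, 4371 windows were lower with both and 1662 higher with both, and the opposed classes, at 2787 and 2702, no longer differed in number as they did without this scaling.

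**Figure D1:**
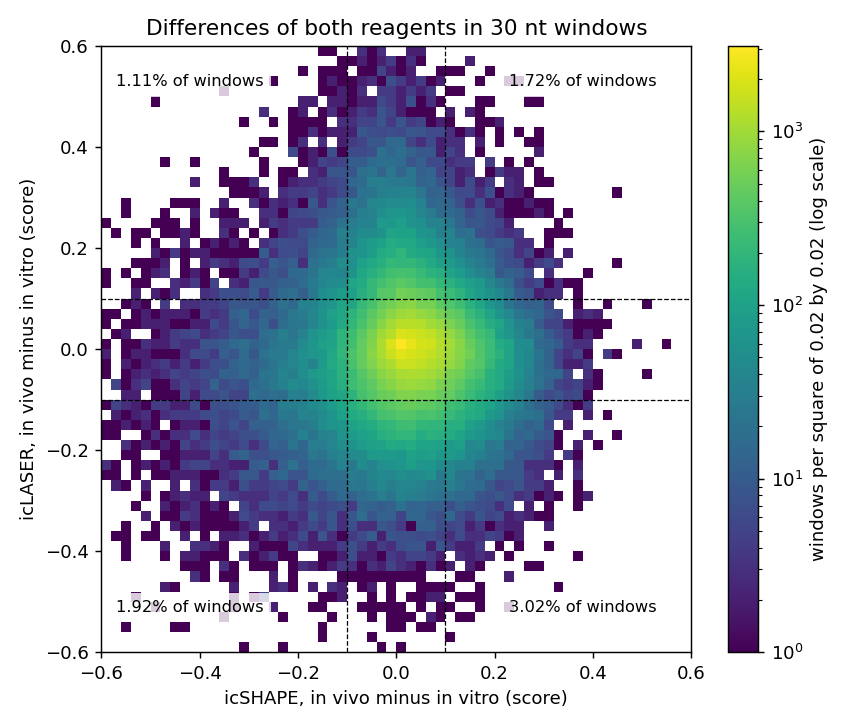
Number of windows by icSHAPE difference (horizontal) and icLASER difference (vertical), both in vivo minus in vitro on the 0 to 1 score scale; colour is on a log scale, dashed lines mark 0.1 and 98 windows lie outside the range. The percentages are the shares of the 4 corner classes, with 1.92% at lower left and 3.02% at lower right; the excess at lower right over the 1.11% at upper left is not seen with each profile divided by its own mean (2787 and 2702 windows).

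Windows lower with both had high scores in extracted RNA, which follows in part from choosing them by a loss. Their mean in vitro scores were 0.413 (icSHAPE) and 0.447 (icLASER), against 0.148 and 0.162 over all windows, and their in vivo scores of 0.20 and 0.247 were still above the overall 0.176 and 0.160. They were richer in A (31.1% against 26.5%) and poorer in C (18.1% against 23.3%). The share of their nucleotides unpaired in the predicted minimum free energy fold was 44.4%, against 42.4% over all windows. They also ran together: 20.4% were followed by a window of the same class. The other classes were likewise richer in A (28.8% to 29.6%) and poorer in C (17.0% to 20.5%), with 43.8% to 46.0% unpaired. In those classes 11.1% to 16.5% of windows were followed by one of the same class. Windows higher with both started low in vitro (0.108 and 0.113) and were 45.7% unpaired in the predicted fold. In the class with icSHAPE higher and icLASER lower, 75.6% of icLASER in vivo scores were 0, against 47.8% over all windows. The median over its windows of the lowest RPKM was 9.48, against 12.2 over all windows.

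Among the eligible windows higher with both, the largest were in CEBPZOS, RPS2P7, PIM2, ZC3H15 and SNHG29. Of these, PIM2 and SNHG29 held runs of U, and RCC2, a regulator of chromosome condensation, gave windows of both opposed classes within 1 3′ UTR. Capitals mark nucleotides that differ by at least 0.2 with each reagent in the direction of the class.
PIM2: uuuUUUUUUuuUuUuugggugagggGaccc
SNHG29: UUUUUUuUUUuugagacagucuugcuguau
RCC2, icSHAPE higher and icLASER lower: uuuuuucccUuaauGuuGaAuuAaAauacu
RCC2, icSHAPE lower and icLASER higher: gACugGUCUUCCaGCUcaGGAAAaAgaauU

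In the 3′ UTR of PIM2, a serine/threonine kinase (chrX:48913541-48913570, minus strand), icSHAPE went from 0.0557 in vitro to 0.373 in vivo and icLASER from 0.189 to 0.467. In the lncRNA SNHG29 (chr17:16441582-16441611, plus strand) the differences were 0.25 and 0.27. In RCC2 the first window (chr1:17408861-17408890, minus strand) went from 0.317 in vitro to 0.565 in vivo with icSHAPE and from 0.344 to 0.103 with icLASER. The second (chr1:17406911-17406940) went the other way, from 0.690 to 0.209 with icSHAPE and from 0.221 to 0.706 with icLASER. Both lie in the same 3′ UTR, the second nearer to the 3′ end.

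snoRNAs held inside longer transcripts were lower in the cell with both reagents. They were looked at after the largest windows had been seen. At least 15 nt of an annotated snoRNA on the same strand lay in 62 windows of 12 longer transcripts, most of them retained introns or lncRNAs. Of these windows 35 (56.5%) were lower with both by 0.1, against 1.90% of windows outside small RNA genes, and 0 were higher with both. Their mean went from 0.355 in vitro to 0.130 in vivo with icSHAPE and from 0.357 to 0.108 with icLASER. Over the 16 pairs of snoRNA and host, the mean difference was below 0 with both reagents in 16. Pairs were taken as annotated, so they include SCARNA12 (in PHB2), a scaRNA by name, and snoRNAs in the SCARNA9 row. The median over pairs was -0.22 for icSHAPE and -0.20 for icLASER, while in the other windows of the same hosts it was 0.10 and 0.075. Such windows made up 1.16% of all windows lower with both, and 12 of the 29 lower by at least 0.4, the windows that had prompted the look.

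SNORA73A, a box H/ACA snoRNA that acts in ribosomal RNA processing, lies at chr1:28507366-28507571 in the SNHG3 intron. Over its 7 windows the icSHAPE mean was 0.577 in vitro and 0.109 in vivo and the icLASER mean 0.588 and 0.0969, while the 78 other windows of the row had differences of 0.080 and 0.080. SNHG3 had the highest within-gene r of the eligible genes, 0.84, and the r over the windows outside the snoRNA was 0.092. Without windows in small RNA genes of any kind, the r over all windows was 0.00053 and that across genes -0.088. In NOP56 the 2 windows of SNORD110 had differences of -0.40 and -0.60, and in RABGGTB the 3 windows of SNORD45C -0.47 and -0.58. SNORD22 in SNHG1 was the least even, with -0.34 for icSHAPE and -0.04 for icLASER.

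Read numbers moved with this result. The RPKM of all 37 rows annotated as snoRNAs themselves was lower in vivo than in vitro with both reagents, with median in vivo to in vitro ratios of 0.179 and 0.0842. Over the 3714 genes these ratios were 1.09 and 1.16, and 16.3% of genes were lower with both. SNORD48, for one, had an RPKM of 1001 in vitro and 107 in vivo with icSHAPE, and 964 and 13.4 with icLASER. Of the 12 host rows 9 had a lower RPKM in vivo with both. Scores were scaled within a row, and in the 140 windows of the snoRNAs' own rows the mean differences were 0.0037 and -0.013. Of these windows 9 (6.43%) were lower with both and 3 (2.14%) higher, against 1.92% and 1.72% of all windows. The part of snoRNA abundance in the host result was not tested.

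The 2 reagents parted along the length of mRNAs. The mean icSHAPE difference was 0.032 in 5′ UTR windows, 0.039 in coding windows and 0.022 in 3′ UTR windows. The mean icLASER difference was -0.047, -0.017 and 0.020 in the same regions. With each profile divided by its own mean, the icSHAPE values were -0.0019, 0.0063 and -0.0024, so their sign in UTRs rests on the scale, while icLASER kept its signs. The icLASER coding mean was -0.00050 at RPKM of at least 20 and 0.0071 over C and U only. Its 3′ UTR mean was 0.0089 without the first and last 100 nt of transcripts, and it was -0.0070 and -0.0039 in the parts of the 3′ UTR from 20% to 60% of its length and 0.108 in the last 20%. Within genes, icLASER was lower in the coding sequence than in the 3′ UTR in all but 233 of 1690 genes, and lower in the 5′ UTR than in the coding sequence in all but 241 of 843. icSHAPE showed no such order, being higher in the coding sequence than in the 3′ UTR in 962 of 1690. Between the first and last 20% of the length of 1783 protein-coding transcripts the icLASER difference was higher at the 3′ side in 1643 genes, by a median of 0.14, and the icSHAPE difference in 754.

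Between the ends, icLASER in vitro went down most of the 4 profiles, while icLASER in vivo fell and rose again: over the windows of 1783 protein-coding transcripts its means in the 5 successive parts were 0.185, 0.162, 0.147, 0.141 and 0.183. In the same transcripts the median icLASER in vitro score per gene was 0.245 in the first 20% of the transcript and 0.102 in the last, while icLASER in vivo was 0.191 and 0.188. icSHAPE went down in both states, from 0.220 to 0.130 in vivo and from 0.185 to 0.112 in vitro. In windows centred 30 to 60 nt from the 3′ end, icLASER was 0.271 in vivo and 0.0781 in vitro, and icSHAPE was 0.0985 and 0.0785.

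The classes followed this course. Windows with icSHAPE higher and icLASER lower made up 8.23% of the first 20% of coding sequences and 0.818% of the last. Windows with icSHAPE lower and icLASER higher made up 3.92% of the last 20% of 3′ UTRs, against 1.11% overall. Windows lower with both were most frequent at the start, 4.74% in the first 20% of 5′ UTRs, and least frequent at the end, 0.524% in the last 20% of 3′ UTRs. Windows higher with both went from 0.875% in the first 20% of coding sequences to 2.64% in the last.

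Near the stop codon the icSHAPE difference was higher than in the coding sequence before it, while the icLASER difference had been climbing already, from 0.017 in windows centred 180 to 150 nt before its end to 0.040 at 90 to 60 nt and 0.045 at 60 to 30 nt, and then fell to 0.037 and 0.032. In windows centred 30 to 60 nt before its end, 4.91% were higher with both and 0.422% lower with both. Windows 120 to 150 nt before it had 2.41% and 1.68%. Over 1857 genes, the mean of the windows centred from 60 nt before to 30 nt after the stop codon was above that of the windows 90 to 180 nt before it by 0.026 ± 0.0022 (SE over genes) with icSHAPE and 0.015 ± 0.0016 with icLASER. Both steps were upward in 36.3% of genes and both downward in 17.1%, against 30.2% and 23.6% for steps 300 nt upstream and 27.0% and 20.1% downstream. At the stop codon icSHAPE was upward in 61.0% and icLASER in 58.3% of genes, and the share with both was near the product of these. The same step taken 300 nt upstream was -0.0016 for icSHAPE and 0.013 for icLASER, and 300 nt downstream -0.0049 and 0.012, so the icLASER step was close to that of the slope around it. The in vitro scores moved more than the in vivo ones: icSHAPE stepped by -0.035 and icLASER by -0.025, against -0.0083 and -0.010 in vivo. Base composition changed there too, with A at 29.1% in windows centred in the last 30 nt of the coding sequence and U at 27.7% in those 30 to 60 nt after it, against 27.0% A and 21.5% U 120 to 150 nt before. Its part in the step was not tested.

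Gene means were small beside window differences. Of 3034 genes, 10.3% had a mean icSHAPE difference of at least 0.05 and 0.033% of at most -0.05, and for icLASER these shares were 1.32% and 0.923%. Both were at least 0.05 in 3 genes, icSHAPE was higher and icLASER lower by that much in 12, and 0 genes lay in the other 2 classes. These counts rest on the scale and the bases: with each profile divided by its own mean they were 0, 1, 2 and 1 (higher with both, opposed, the reverse, lower with both), at RPKM of at least 20 the 12 became 0, and over A and G only it became 65. By sign alone, 1695 genes (55.9%) were higher with both, 960 (31.6%) higher with icSHAPE and lower with icLASER, 261 (8.6%) the reverse and 118 (3.89%) lower with both. The icSHAPE sign can rest on the scale, since its UTR means turned negative with each profile divided by its own mean. Sign counts, here and for the gene lists below, were not recomputed that way. Longer transcripts were lower with icLASER and higher with icSHAPE, with Spearman's rho of -0.39 and 0.28 across the genes, which are not independent replicates.

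Among genes with at least 20 windows and RPKM of at least 10, those most above 0 with both were mostly in short transcripts. NDUFAF2, an assembly factor of respiratory complex I, went from 0.149 in vitro to 0.212 in vivo with icSHAPE and from 0.141 to 0.188 with icLASER. SVBP, a partner of the vasohibins, had differences of 0.0474 and 0.0522, and CBX3, a heterochromatin protein, 0.0485 and 0.0469. GLRX2, CLTA, H1-2, PTRHD1 and SFPQ completed this group, with icSHAPE differences of 0.0505 to 0.0865 and icLASER differences of 0.0388 to 0.0465.

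The genes lower with both were mostly not mRNAs of their own. FTH1P10, HNRNPA1P35, MTND5P11, EIF3FP3, EIF2S2P3 and RPSAP11 are copies of other genes, with which they may share reads. The largest of them, FTH1P10, had differences of -0.0315 and -0.0194. The protein-coding transcript among the 8 was MRPL12, a mitochondrial ribosomal protein, at -0.0152 and -0.0107, and the last was a retained-intron transcript of WSB1, at -0.0145 and -0.0125.

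The opposed genes fell into 2 kinds. Those higher with icSHAPE and lower with icLASER were mRNAs with lowest RPKM of 10.2 to 14.6, most of them long. PAPOLA, the poly(A) polymerase, went from 0.143 in vitro to 0.188 in vivo with icSHAPE and from 0.183 to 0.130 with icLASER, and 20 of its 149 windows were in that class. Of these 20, 12 were sparse as defined for TFRC, as were 48.3% of its windows and 1976 of the 4739 windows of the class in all genes. As for TFRC, the icLASER loss can itself make a window sparse, so these counts do not measure depth. MPHOSPH6, PCNP, LARP1, BCAT1, AP2B1, SRSF1 and RAB5A followed, with icSHAPE differences of 0.0339 to 0.0639 and icLASER differences of -0.0479 to -0.0340. TFRC was of the same kind, at 0.0536 and -0.0617. Those lower with icSHAPE and higher with icLASER included abundant RNAs. The mitochondrial ribosomal RNAs MT-RNR1 (-0.0275 and 0.0407) and MT-RNR2 (-0.0374 and 0.0211) were among them with FTL, UQCRFS1, PSMA1, MARCHF6, ZNF593 and ATF4P3.

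The mean of a gene and the pattern within it were separate matters. MT-RNR1 was opposed on average, yet its 30 windows had an r of 0.69 and 4 of them, all past position 666, were lower with both. The window at positions 697 to 726 went from 0.404 to 0.134 with icSHAPE and from 0.463 to 0.232 with icLASER. The nuclear rRNA rows behaved alike. 18S had an r of 0.34 with 6 of 61 windows lower with both and 5 higher. 28S had an r of 0.33 with 11 of 167 lower and 10 higher. Over all windows 1.92% were lower and 1.72% higher. Without sparse windows r was 0.24 and 0.14, but a loss in the cell can itself make a window sparse. Both rows were abundant, yet 31.1% and 64.7% of their windows were sparse, so in these rows the label need not stand for few reads. This does not carry over to rows of low RPKM. The RPKM of these rows was lower in vivo, for 18S 1484 against 18459 in vitro with icSHAPE and 1257 against 17758 with icLASER, and for 28S 2299 against 11084 and 4419 against 14425. The RPKM of MT-RNR1 was lower in vivo too, at 3171 against 6295 with icSHAPE and 2571 against 7033 with icLASER. The part of these RPKM changes in the window differences was not tested. The first 3 windows of the 28S row were all lower with both, the second from 0.351 to 0.0555 with icSHAPE and from 0.346 to 0.00377 with icLASER.

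NANS, the sialic acid synthase, had the highest r of the protein-coding transcripts with at least 30 windows and RPKM of at least 10 (0.71 over 37 windows). In NANS, 3 neighbouring coding windows, from position 457 to 546 of the profile, were lower with both, the middle one from 0.472 to 0.164 with icSHAPE and from 0.577 to 0.252 with icLASER, and 5 later ones were higher with both. RPL3P2 (0.83) and EEF1A1P14 (0.65), both processed pseudogenes, completed the highest 5. At the other end stood MRPL13 (-0.69), a mitochondrial ribosomal protein. Its first 8 windows could not be placed on the reference transcript and held all 4 of its windows higher with icSHAPE and lower with icLASER, and over the other 27 r was -0.22. The next were a retained-intron transcript of TUBA1C (-0.60), PRSS21 (-0.53), C5orf15 (-0.51) and the translation initiation factor subunit EIF3D (-0.50). In C5orf15, 6 windows near the 5′ side were higher with icSHAPE and lower with icLASER, and 4 windows of the 3′ UTR were the reverse.

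Erythroid and iron genes (19 of 26 measured) had a median r of 0.36, against 0.070 over all genes, and r was above 0 in 16 of 19, against 60.3% of all genes. Their members of highest mean RPKM over the 4 profiles were FTL (0.61), HBG1 (0.40), HBG2 (0.51) and HBZ (0.52). The 2 fetal globin genes are near-identical and may share reads. Without windows that could not be placed, r was 0.19 for HBG1 and 0.35 for HBG2. mRNAs of mitochondrial DNA (11 of 13 measured) had a median r of 0.32, above 0 in 10 of 11, with MT-CO2 at 0.72 and MT-ND3 at 0.75. Nuclear genes of oxidative phosphorylation followed at 0.21 (35 of 51 above 0) and the proteins of the small and large ribosomal subunits at 0.18 (23 of 30) and 0.15 (32 of 48). The median lowest RPKM of these groups was 54.0, 2331, 48.4, 317 and 314, against 15.5 over all genes, and the median r over the 20% of genes with the highest RPKM was 0.17, near that of the last 3 groups.

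Ribosomal protein mRNAs had small icSHAPE and raised icLASER means. The medians were 0.014 and 0.017 for the small subunit and 0.0067 and 0.021 for the large, against 0.025 and 0.0065 over all genes. Both groups are abundant, and in the 20% of genes with the highest RPKM, these groups included, the medians were also nearer to theirs, at 0.013 with each reagent. icSHAPE was higher and icLASER lower in 1 of 30 and 3 of 48 of them, against 31.6% of all genes, and the reverse held in 7 and 15, against 8.6% of all genes. RPLP1 stood at -0.0348 and 0.0552, RPS18 at -0.0010 and 0.0556 and RPL41 at -0.0061 and 0.0511. These transcripts are short, with median lengths of 613.5 and 600 nt against 1172 for all genes.

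Genes of the endoplasmic reticulum and secretory pathway had the opposite sign pair more often, and the part of transcript length and RPKM in this was not tested. icSHAPE was higher and icLASER lower in 20 of 38, against 31.6% of all genes, and their median r was 0.00088. The same sign pair held in 9 of 18 ribosome assembly genes and, near the share of all genes, in 13 of 34 translation factors, 12 of 31 hnRNP and SR proteins, 10 of 29 replication and cell cycle genes and 9 of 27 proteasome subunits, with median r of 0.020, 0.087, -0.019, 0.11 and 0.12. It held in 7 of 28 chaperones, 6 of 26 tubulins and actins, 3 of 12 glycolytic enzymes, 3 of 16 aminoacyl-tRNA synthetases and 1 of 6 histone variants, with median r of 0.058, 0.026, 0.054, 0.026 and 0.16. HSP90AB1, the constitutive cytosolic chaperone, had a mean difference of 0.0835 with icSHAPE and 0.0072 with icLASER.

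At single nucleotides the relation was weak for every base. Over 4873785 nucleotides r was 0.029, and it was 0.031 for A, 0.026 for C, 0.040 for G and 0.027 for U. Scores lower by at least 0.5 with both reagents made up 0.479% of nucleotides, 2.56 times the product of the separate shares. Scores higher by at least 0.5 with both made up 0.466%, 2.05 times. Scores higher with icSHAPE and lower with icLASER by that much made up 0.497%, more than either joint class. The separate shares behind that opposed class were 5.55% and 4.28%. The reverse made up 0.290%. For C, which is not a known site of NAz-N3, the ratio for joint losses was 3.74, above the 2.31 to 2.72 of the other bases. The mean icLASER difference was -0.031 for G, -0.0021 for A, 0.020 for C and 0.016 for U. The mean icSHAPE difference was positive for every base, from 0.022 for C to 0.039 for G. When the icLASER scores were moved by 1 nt upstream or downstream, r was 0.016 and 0.011.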

How the data were processed

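Per the submitters' processing notes the tools were Trimmomatic and Bowtie2. The authors aligned the reads to the human transcriptome of ENSEMBL Release 88 (GRCh38) and ran the icSHAPE pipeline at its defaults, except that the coverage and background minimums of its last filter were lifted. They deposited 1 profile per group, pooled over replicates and controls, with an RPKM per transcript and an enrichment score per nucleotide scaled to 0 to 1. Poly(A) RNA had been enriched in all samples. Transcripts present in all 4 profiles were kept, 1 per gene, and the deposited scores were averaged over windows of 30 nt from nucleotide 7. Windows with a score outside 0 to 1 (2) were left out. Sequences, regions and coordinates came from GENCODE 44 on GRCh38. A transcript of another length than its reference was placed by matching its scores to the bases, which was accepted for 1485 of 1531. Of 2111 transcripts of known offset, it was accepted for 1452, with a wrong offset in 4 of these (0.275%). Structures were predicted with ViennaRNA 2.7.2 for the window and 60 nt on each side. Python 3.11.15, numpy 2.4.6 and pandas 2.3.3 were used, and the window code was tested on simulated data. With 1 profile per group no test was possible, so a window was called past 0.1 and a gene mean (at least 10 windows) past 0.05.

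Genes named were the 8 per class with the largest smaller-of-both mean differences (at least 20 windows, RPKM of at least 10), the 5 highest and 5 lowest r within genes (at least 30 windows), the 5 largest windows per class (1 per gene, RPKM of at least 20) and the abundant members of 16 gene lists. Windows eligible for naming also had a known sequence and did not lie on chromosome 8. TFRC and the snoRNAs were added after their values were seen. The members and lists were chosen with earlier results of these data known. Alternatives changed the window, the transcripts, the scaling, the bases, the thresholds and the correlation.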

Additional observations from a re-analysis of the deposited data

How the results depend on the processing

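No paired analysis was possible because each profile pools its replicates, and no replicate could be left out for the same reason. In all, 17 results (3 correlations, 4 counts of windows, 4 counts of genes and 6 regional means) were recomputed, and keeping all scores as deposited or assigning regions by the middle nucleotide changed none of those they touched by more than 0.005, or 1.5 times for a count. The cause of the other changes was not tested. No read counts were in the profiles. The r within genes went with RPKM, the stand-in for depth (rho 0.19), and with transcript length (rho -0.30).

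r over windows turned negative with windows of 60 nt (-0.0234), by rank (-0.0237), over C and U only (-0.00115), in protein-coding transcripts (-0.0167) and with base composition and in vitro levels fitted out (-0.0906). It was 0.0308 with windows of 15 nt, 0.0168 over A and G, 0.0400 with each profile divided by its own mean, 0.0268 over every transcript, 0.0128 without the first and last 100 nt, 0.0708 at RPKM of at least 20, 0.0157 by window medians, 0.000533 without windows in small RNA genes, 0.112 less 6 neighbours and 0.0626 less the mean at the same relative position. It was 0.253 in processed pseudogenes and 0.118 in transcripts neither protein-coding nor processed pseudogenes. Over single nucleotides it was 0.0293, and 0.0112 and 0.0157 with icLASER moved by 1 nt. The settings on transcript type, small RNA genes, unplaced or sparse windows of named genes, neighbours, relative position and equal length were chosen after seeing the data.

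The median r within genes turned negative only with in vitro levels fitted out (-0.0804). It was 0.0938 and 0.0129 with windows of 15 and 60 nt, 0.0464 by rank, 0.0374 by window medians, 0.0847 over A and G, 0.0234 over C and U, 0.109 with each profile divided by its mean, 0.0587 over every transcript, 0.0624 without the ends, 0.0354 in protein-coding transcripts, 0.155 at RPKM of at least 20, 0.0605 with composition fitted out, 0.109 less 6 neighbours and 0.104 less the positional mean. The r across genes turned positive at RPKM of at least 20 (0.00517) and with in vitro levels fitted out (0.364). It was also positive in processed pseudogenes (0.106) and in transcripts neither protein-coding nor processed pseudogenes (0.0131). Otherwise it was -0.0866 and -0.175 with windows of 15 and 60 nt, -0.114 with windows moved by 15 nt, -0.145 by rank, -0.179 by medians, -0.124 over A and G, -0.0575 over C and U, -0.149 after division by the mean, -0.0860 without the ends, -0.207 in protein-coding transcripts, -0.0884 without small RNA genes and -0.184 less the positional mean.

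Windows higher with both, icSHAPE higher and icLASER lower, icSHAPE lower and icLASER higher, and lower with both numbered, in this order, 13636, 17331, 6225 and 8375 at 0.05, 109, 275, 174 and 593 at 0.2, 9058, 12434, 5040 and 8566 with windows of 15 nt, 602, 1679, 586 and 982 with 60 nt, 7374, 10092, 4674 and 7054 over every transcript, and 786, 597, 547 and 819 at RPKM of at least 20. The first 2 classes were 5124 and 9879 over A and G. The opposed classes were 2628 and 3143 over C and U, and the first 3 were 1662, 2787 and 2702 after division by the mean.

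In the same order, genes numbered 326, 172, 18 and 8 at 0.02 and 0, 1, 2 and 1 after division by the mean, and the first 2 were 0 and 0 at 0.1, 14 and 65 over A and G, and 6 and 0 over C and U. Genes higher with both numbered 0 with at least 20 windows, 27 over every transcript, 7 with windows moved, 13 without the ends, 1 in protein-coding transcripts and 9 without small RNA genes. Genes higher with icSHAPE and lower with icLASER numbered 0 at RPKM of at least 20. The reverse class numbered 4 with at least 3 windows and 1 without the ends, and genes lower with both 3 with at least 3 windows and 1 with windows of 15 nt.

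Of the regional means, icSHAPE in 5′ and 3′ UTRs turned to -0.00192 and -0.00241 after division by the mean, with 0.00630 in coding windows, and icLASER in coding windows to 0.00711 over C and U. Over A and G the icLASER means were -0.0900, -0.0386 and 0.00825 in 5′ UTR, coding and 3′ UTR windows and the icSHAPE means 0.0374, 0.0483 and 0.0291. Over C and U they were -0.00815 and 0.0303 in the UTRs for icLASER and 0.0236, 0.0268 and 0.0145 for icSHAPE. Without the ends icLASER was -0.0390 and 0.00894 in the UTRs and icSHAPE 0.0440 in 5′ UTRs. At RPKM of at least 20 icLASER was -0.000504 in coding and 0.0386 in 3′ UTR windows and icSHAPE 0.0141 in 5′ UTR and 0.0203 in coding windows. Over every transcript the coding means were 0.0321 for icSHAPE and -0.00850 for icLASER, and icSHAPE in 5′ UTRs was 0.0376 with windows of 60 nt and 0.0259 with transcripts of equal length.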

Other observations

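Just before exon junctions both differences were lower than in the 10 nt on either side, and only icSHAPE was also lower than farther upstream. In the last 10 nt of an exon the mean icSHAPE difference was 0.031 and the mean icLASER difference -0.026, over 11481 junctions. The 10 nt before had 0.045 and -0.015, and the first 10 nt of the next exon had 0.046 and -0.018. In the steps of 10 nt from 120 to 30 nt before the junction icSHAPE was 0.036 to 0.040. There icLASER was -0.031 to -0.027, lower than in the last 10 nt. The SE over junctions was 0.0013 for icSHAPE and 0.0011 for icLASER, and junctions of 1 gene share its reads.

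Rows of small nuclear RNAs, which build the spliceosome, held more windows higher with both reagents than lower with both. Of their 195 windows in 62 genes, 17 were higher with both reagents by 0.1 (8.72%, against 1.72% of all windows) and 2 lower (1.03%, against 1.92%). The mean difference was 0.00070 with icSHAPE, which was lower in vivo in 112 windows, and 0.023 with icLASER. In the 6 windows of a small nuclear RNA inside 1 longer transcript the means were -0.18 and -0.11, and 2 windows were lower with both. Other annotated kinds of small RNA inside longer transcripts had 0 windows lower with both. Their means were -0.016 and -0.0087 for scaRNA (19 windows), 0.049 and -0.021 for miRNA (34) and 0.023 and 0.037 for misc_RNA (13). SCARNA12 in PHB2, a scaRNA by name, was counted with the snoRNAs, and 4 of its 8 windows were lower with both. Many small nuclear RNA genes are near-identical copies, which may share reads.

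Processed pseudogenes had a median r within genes of 0.30 over 510 genes, against 0.035 over 2034 protein-coding transcripts. LDHB, a lactate dehydrogenase subunit chosen here after its values were seen, had differences of 0.074 and 0.057 and an r of 0.76 over 19 windows of a retained-intron transcript.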
